A study of Homo sapiens with 10 samples.

Results

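A set of 42 long non-coding RNA (lncRNA) genes was nearly silent in HCT116 cells and expressed in DNMT1 KO cells. They were chosen from 14601 lncRNA genes on chromosomes 1 to 22, among 58884 genes in the count tables, by their levels in CPM (a gene's count divided by its library's total and scaled to a total of 1000000). A member had a mean over the HCT116 libraries of at most 5% of the mean over the DNMT1 KO libraries, and at least 0.5 CPM in every DNMT1 KO library. Since these values chose the members, their own levels and folds are given as a description, without a test, and single-gene tests are given for other genes only.

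HCT116 is a human colorectal carcinoma cell line, represented here by 6 libraries from unmodified cells. DNMT1 KO is an HCT116 derivative made before this study, represented by 4 libraries. It expresses a shortened DNMT1 that lacks the parts binding DMAP1 and PCNA, so it is a hypomorph and not a null, and it is a single line, so the DNMT1 change and any other difference that arose in that line cannot be told apart. Polyadenylated RNA from independent cultures was sequenced in read pairs, to ask how loss of the enzyme alters transcription.

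DNMT1 is the maintenance DNA methyltransferase, which copies CpG methylation onto the new strand after replication. Methylation of a CpG-containing promoter, or of a retrotransposon's terminal repeat, is a known form of transcriptional repression. A lncRNA is a transcript with no long open reading frame, and many are transcribed in the opposite direction to a protein-coding gene or from a promoter shared with it, so the nearest coding gene is the usual first point of reference.

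The start sites differed widely in their CpG content. The following 3 windows run from 250 bases before the annotated start to 50 bases after it, 5′ to 3′ on the gene's own strand, with every CpG in capitals, and are shown because they span the range from CpG-rich to CpG-free. IGFBP7-AS1 lies at chr4:57109512-57109811 (plus strand) within the gene IGFBP7, SFTA1P at chr10:10794931-10795230 (minus strand) and OVAAL at chr1:180552499-180552798 (plus strand), all on hg38. No other annotated gene falls in the windows of SFTA1P and OVAAL.
IGFBP7-AS1: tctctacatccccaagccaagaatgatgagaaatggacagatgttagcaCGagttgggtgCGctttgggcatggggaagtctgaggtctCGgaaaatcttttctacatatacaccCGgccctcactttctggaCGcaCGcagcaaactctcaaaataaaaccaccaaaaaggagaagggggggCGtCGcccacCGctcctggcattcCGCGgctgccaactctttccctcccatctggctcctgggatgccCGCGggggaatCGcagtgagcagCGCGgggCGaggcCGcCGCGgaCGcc
SFTA1P: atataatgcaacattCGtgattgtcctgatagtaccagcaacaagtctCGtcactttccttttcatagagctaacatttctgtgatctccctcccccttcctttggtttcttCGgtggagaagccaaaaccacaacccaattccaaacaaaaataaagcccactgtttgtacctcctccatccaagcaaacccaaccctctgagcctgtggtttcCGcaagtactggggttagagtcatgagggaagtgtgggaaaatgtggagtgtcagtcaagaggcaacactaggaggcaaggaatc
OVAAL: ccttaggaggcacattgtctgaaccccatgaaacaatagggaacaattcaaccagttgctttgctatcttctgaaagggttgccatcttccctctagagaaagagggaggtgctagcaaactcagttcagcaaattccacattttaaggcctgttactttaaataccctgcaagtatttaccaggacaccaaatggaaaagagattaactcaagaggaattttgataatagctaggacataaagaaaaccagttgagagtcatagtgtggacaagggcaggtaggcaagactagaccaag

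These windows hold 21, 4 and 0 CpG respectively. The number of CpG relative to that expected from the C and G present was 0.814 for IGFBP7-AS1 and 0.251 for SFTA1P. Among the 42 members the median of this ratio was 0.384, and the median count was 7 CpG in 300 bases. The other 1066 lncRNA genes with at least 0.5 CPM in every DNMT1 KO library had a median ratio of 0.695 and a median of 18 CpG, while all 14559 other lncRNA genes had 0.280 and 4. Only 6 members (14.3%) had a CpG-rich window, defined as at least 50% G and C with a ratio of at least 0.6, against 55.3% of the other expressed lncRNA genes and 19.3% of all others. The members' median thus lay below that of the other expressed lncRNA genes and above that of all others, a description with no test, as the plot of CpG density shows. DNA methylation at these windows was not analysed here.

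**Figure D1:**
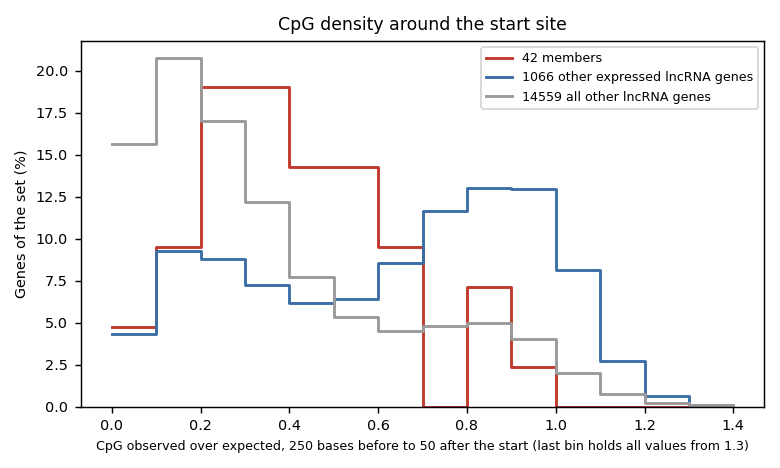
Share of genes (%) in each bin of the CpG observed over expected ratio around the start site, for the 42 members, the 1066 other lncRNA genes expressed in DNMT1 KO and the 14559 other lncRNA genes. The members' median is 0.384, between 0.280 for all other lncRNA genes and 0.695 for the other expressed ones.

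Short motifs of known factors were also looked for on both strands of the 300 bases. The E-box CACGTG was in 3 members (7.14%), LINC01630, LINC01694 and LINC02188, against 8.26% of the other expressed and 5.15% of all other lncRNA windows. The ETS motif CCGGAAG was in 5 (11.9%), against 13.3% and 4.48%. The TATA motif TATAAA was in 6 (14.3%), against 9.66% and 16.2%. The cyclic AMP response element TGACGTCA and the palindromic NRF1 motif were in none of the 42 windows, against 1.59% and 1.5% of the other expressed ones. Each motif was searched for on its own, and a match is only a match of letters.

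Depth ranged from 35418732 to 85991812 counts per library in HCT116 and from 26700853 to 55732013 in DNMT1 KO. DNMT1 itself was at 88.3 to 234 CPM in HCT116 and at 15 to 24.3 CPM in DNMT1 KO. Among genes with 1 to 10 counts, 64.4 to 70% of the counts were even in 9 libraries, against 39.9% in DNMT1 KO replicate 4, so intervals and floors below cover counting error only and may be too narrow. Batches 1 and 2 hold libraries of both groups, while batch 3 is a lone DNMT1 KO library (replicate 4) and batch 4 is 3 HCT116 libraries (replicates 7 to 9). Colon epithelial markers summed to 2522 to 5594 CPM in HCT116 and to 729 to 1513 CPM in DNMT1 KO, where EPCAM, CDH1, KRT8 and KRT18 were called lower and VIL1 higher of 7 tested, with CDX1 at or below 0.0779 CPM in all libraries. The endothelial markers summed to 0.105 to 0.678 CPM in HCT116 and 3.79 to 5.93 CPM in DNMT1 KO (PECAM1 and VWF called higher, 2 of 2 tested). The fibroblast markers summed to 5.62 to 19.2 and 6.6 to 17.0 CPM (LUM called higher, 1 of 2 tested). VIL1, PECAM1 and LUM passed the filter on low counts through their DNMT1 KO level alone, so they had to differ. Of all genes tested, 7.42% were called higher and 6.49% lower, and nothing is read from the counts of marker calls. PTPRC, the defining leukocyte gene, was at or below 0.0359 CPM in all 10 libraries, and the part of any of these markers in the results was not tested.

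Across lncRNA genes as a whole, more were detected on average in DNMT1 KO. The number at 0.5 CPM or more was 1231 ± 153 per HCT116 library (SD, n = 6) and 1513.5 ± 97.9 per DNMT1 KO library (SD, n = 4), a difference of 282. The ranges overlapped, at 988 to 1465 in HCT116 and 1433 to 1656 in DNMT1 KO. These counts include the members, which the rule fixes, and without them the difference was 243 (exact permutation test, two-sided, p = 0.0381). With the members, batch 1 alone gave a difference of 207 and batch 2 one of 313.5. With the batch 1 and 2 libraries alone it was 278, and 3 against 3 libraries cannot give a p below 0.1. The share of counts in lncRNA genes was 0.840 ± 0.158% in HCT116 (SD, n = 6) and 0.948 ± 0.116% in DNMT1 KO (SD, n = 4), members included, and without them the difference was 0.072 percentage points (exact permutation test, two-sided, p = 0.495). The members together contributed 4.70 to 12.5 CPM per HCT116 library and 324 to 393 CPM per DNMT1 KO library.

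In DNMT1 KO the members spanned 0.633 to 96.8 CPM in the group mean, with a median of 2.08 CPM. There were 10 members at 10 CPM or more, 27 between 1 and 10 CPM and 5 below 1 CPM. In HCT116, 12 members had no count in any of the 6 libraries, 10 had 1 to 10 counts in sum and 20 had more than 10. The groups did not overlap for any of the 42, which the rule nearly fixes, and 16.5% of all lncRNA genes tested had every DNMT1 KO library above every HCT116 library. All 42 were also called higher by edgeR's quasi-likelihood test (adjusted p under 0.05 and log2 fold change above 1), as were 11.5% of the lncRNA genes and 7.42% of all genes tested, with 6.49% of all genes lower, and nothing is read from that count because the rule used the same contrast.

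**Figure D2:**
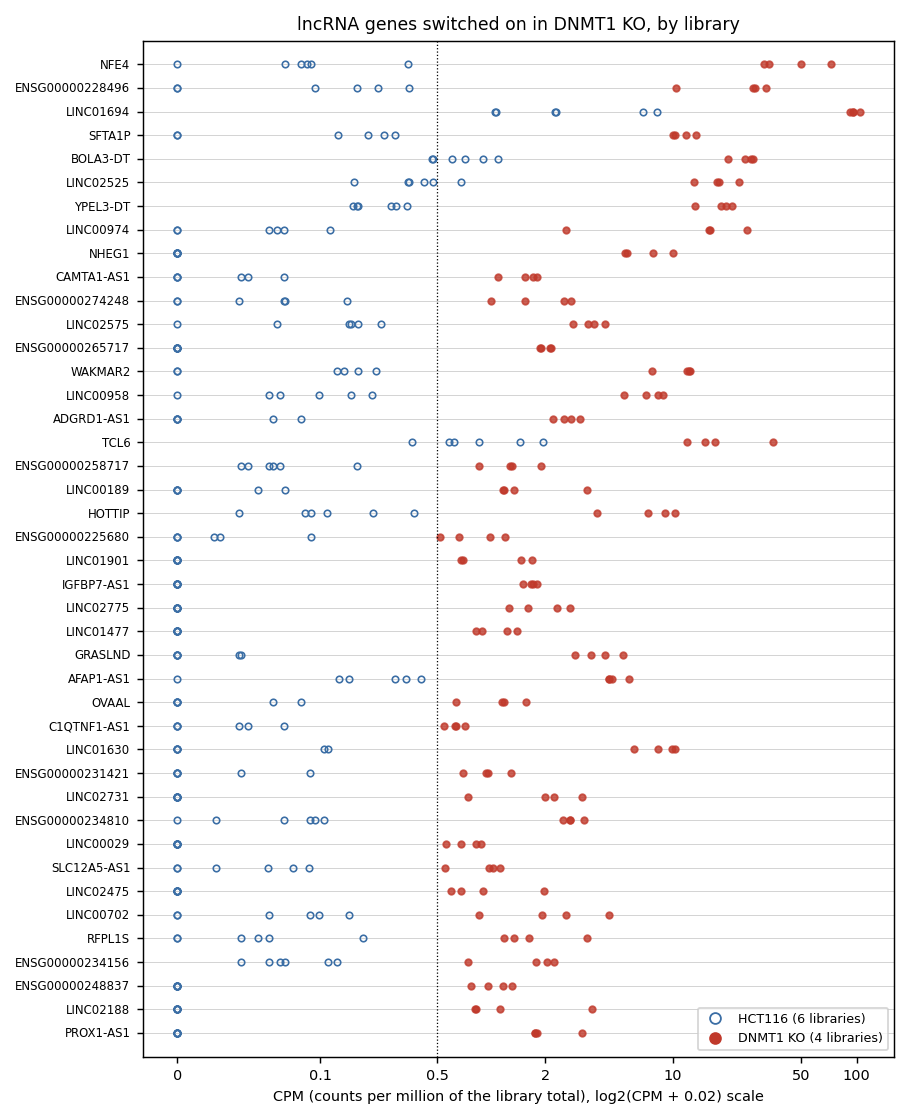
CPM of each of the 42 members in the 6 HCT116 libraries (open circles) and the 4 DNMT1 KO libraries (filled circles), on a log2(CPM + 0.02) scale, ordered from top to bottom by DNMT1 KO CPM per kb of exon. The dotted line is at 0.5 CPM, and for every member the filled circles lie to the right of all open ones.

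Per kb of exon, NFE4 was the most abundant member at 28.3 CPM per kb, and the median over the 42 was 1.09. NFE4 (ENSG00000230257, chromosome 7, 102973430 to 102988856) is named for an erythroid factor linked to fetal globin expression and is annotated as a lncRNA gene. It was at 33.3, 49.9, 72.0 and 31.3 CPM in DNMT1 KO replicates 1 to 4. In HCT116 the lowest, median and highest libraries were at 0, 0.0778 and 0.342 CPM. Every DNMT1 KO library was thus far above the highest HCT116 library, and the pooled counts gave a ratio of 531 (95% counting interval 379 to 767).

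LINC01694 (chromosome 21, 45593654 to 45603056, plus strand) had the highest CPM of the set and was not silent in HCT116. Its DNMT1 KO libraries were close together, at 95.7, 95.2, 105 and 91.5 CPM. Its HCT116 libraries ran from 1.06 through a median of 2.28 to 8.21 CPM. HCT116 replicates 2 and 3, both of batch 2, were the highest at 6.82 and 8.21 CPM, and it was the only one of 7 members tested within HCT116 that was called between batch 4 and batches 1 and 2. The ratio of pooled counts was 33.4 (95% counting interval 31.4 to 35.6).

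ENSG00000228496, which starts inside the phosphatidate phosphatase gene LPIN1 on the same strand, was second per kb at 20.8 CPM per kb. It was at 32.2, 27.9, 10.3 and 27.2 CPM in DNMT1 KO replicates 1 to 4, so replicate 3 was low, and at 0 to 0.346 CPM in HCT116 with a median of 0.131. SFTA1P, a transcribed pseudogene of a surfactant-associated gene, was at 10.3, 13.3, 11.8 and 10.0 CPM against 0 to 0.285 CPM in HCT116 with a median of 0.164. LINC02525 was at 22.9, 17.7, 17.3 and 13.1 CPM against 0.163 to 0.684 CPM with a median of 0.383. In all 3 the lowest DNMT1 KO library lay more than 10-fold above the highest HCT116 library. A pair of divergent transcripts, named for the coding gene on the other side of their promoter, had measurable HCT116 levels as well. BOLA3-DT was at 24.8, 26.4, 27.1 and 19.8 CPM against 0.470 to 1.10 CPM with a median of 0.662, and YPEL3-DT was at 19.5, 20.9, 18.3 and 13.1 CPM against 0.161 to 0.337 CPM with a median of 0.222.

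LINC00974, which lies among keratin genes on chromosome 17, varied most between the DNMT1 KO libraries. It was at 15.6, 25.1, 2.58 and 15.8 CPM, so replicate 3 was 9.72-fold below the highest library, and in HCT116 it was at 0 to 0.116 CPM with a median of 0.0464. The other members of the 12 highest per kb were NHEG1, CAMTA1-AS1, ENSG00000274248 and LINC02575. CAMTA1-AS1 had 6 counts in all of HCT116 and was at 1.09 to 1.80 CPM in DNMT1 KO, ENSG00000274248 had 20 counts and was at 1.00 to 2.77 CPM, and LINC02575 had 45 counts and was at 2.85 to 4.24 CPM.

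NHEG1, first described as a transcript highly expressed in neuroblastoma, had the largest lower bound. It had no count in the 6 HCT116 libraries and was at 9.99, 7.81, 5.47 and 5.58 CPM in DNMT1 KO replicates 1 to 4. Against a floor of 3 counts over the whole HCT116 group it was at least 858-fold higher. The same bound was at least 252-fold for PROX1-AS1, at 1.76, 1.79, 3.16 and 1.76 CPM, and at least 242-fold for LINC02731, at 1.98, 2.22, 3.19 and 0.749 CPM. The other members with no HCT116 count had bounds of 87.6 (LINC00029) to 239 (ENSG00000265717). GRASLND, a lncRNA reported to act in cartilage formation, had 4 HCT116 counts and was at 4.22, 5.35, 2.92 and 3.56 CPM in DNMT1 KO, a ratio of 360 with a counting interval of 140 to 1325.

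The remaining members were mostly lower. TCL6, from a locus rearranged in T-cell leukaemia, was at 16.9, 15, 35.0 and 11.9 CPM in DNMT1 KO and at 0.358 to 1.95 CPM in HCT116 with a median of 0.738. LINC01630 was at 9.91, 10.3, 6.08 and 8.24 CPM and had 8 counts in HCT116, a ratio of 380 with a counting interval of 192 to 881. LINC00958 was at 5.37, 8.78, 7.12 and 8.31 CPM against 0 to 0.209 CPM with a median of 0.0757. TCL6 is thus close to the 5% limit while the other 2 are far from it. LINC00189, which lies on the same strand as the transcription factor gene BACH1 and shares 27.8% of its exonic bases with it, was at 1.18, 1.17 and 1.35 CPM in replicates 1 to 3 and at 3.37 CPM in replicate 4. OVAAL, first described as amplified in ovarian adenocarcinoma, was at 0.637 to 1.56 CPM and had 10 counts in HCT116. ENSG00000234810 (2.51 to 3.26 CPM), ENSG00000234156 (0.749 to 2.22 CPM) and ENSG00000231421 (0.695 to 1.28 CPM) had 21, 25 and 8 HCT116 counts, and LINC02475 (0.599 to 1.97 CPM), LINC00029 (0.561 to 0.879 CPM) and ENSG00000248837 (0.772 to 1.31 CPM) had none.

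The spread between DNMT1 KO libraries was modest for most members. The highest library was 1.14 to 9.72 times the lowest, with a median of 1.83. In 23 members it was at most 2 times, and in 6 more than 3 times. Beside LINC00974 the widest were LINC00702, at 1.92, 0.857, 4.45 and 2.58 CPM, LINC02188, at 1.12, 0.818, 3.62 and 0.824 CPM, and LINC02731. The narrowest were LINC01694, ENSG00000265717 at 1.90, 2.14, 2.12 and 1.87 CPM, IGFBP7-AS1 at 1.79, 1.67, 1.70 and 1.5 CPM, and AFAP1-AS1 at 4.46, 5.76, 4.49 and 4.61 CPM. No library was uniformly high or low. Replicate 3 was the highest for 12 members and the lowest for 14, and the median deviation from the member's own mean ran from -0.07 (replicate 4) to 0.18 (replicate 2) on the log2 scale.

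Near the limits of the rule, AFAP1-AS1, ENSG00000258717 and TCL6 had HCT116 means of 4.52, 4.57 and 4.92% of the DNMT1 KO mean and were kept, while LINC02945, LINC00523 and ENSG00000270038, at 5.09, 5.19 and 5.45%, were not. ENSG00000225680, C1QTNF1-AS1 and SLC12A5-AS1 had lowest DNMT1 KO libraries of 0.520, 0.545 and 0.556 CPM, and ENSG00000224984, ENSG00000233251 and CARMAL, at 0.448, 0.449 and 0.467 CPM, fell outside.

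The members lay on 16 chromosomes, 21 on each strand. Chromosome 1 held 5, and chromosomes 4, 18 and 21 held 4 each. Only 3 pairs lay within 500 kb of each other. PROX1-AS1 and LINC02775, 62686 bases apart on chromosome 1, lie on either side of the homeobox gene PROX1, the former overlapping its start, and both had no HCT116 count, with LINC02775 at 2.32, 2.75, 1.26 and 1.61 CPM in DNMT1 KO. LINC01901 and LINC01477 were 141446 bases apart on chromosome 18, 2030394 and 1856001 bases from the nearest coding gene PIK3C3, and also had no HCT116 count, at 0.682 to 1.69 and 0.828 to 1.4 CPM in DNMT1 KO. LINC01694 and ENSG00000274248 were 371433 bases apart on chromosome 21.

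Position relative to coding genes is given as a description, with no test. The median number of coding genes within 500 kb was 7.5, against 11 for the 1066 others and 8 for all 14559 others. The median distance to the nearest coding gene body was 7194 bases, against 0 and 111. In all, 16 members (38.1%) overlapped their nearest coding gene, 14 of them on the opposite strand, against 58.3% and 48.5%. A further 2 lay within 5 kb, 14 between 5 and 50 kb and 10 (23.8%) beyond 50 kb, against 6.10% of the other expressed and 23.8% of all other lncRNA genes beyond that distance. These distances and the start windows use the coordinates supplied with the counts. In GENCODE 44, 24 of the 42 had the same start and end, and all 42 the same nearest coding gene. Some distances differed there, such as LINC02731 (1135 in place of 22076 bases), LINC02575 (2374 in place of 7604) and OVAAL (6426 in place of 49795). Divergent pairs without overlap and with start sites within 5 kb were 2 of 42 (4.76%), BOLA3-DT and SFTA1P. The shares were 16.6% of the other expressed and 6.33% of all other lncRNA genes. With overlapping pairs and any orientation counted, start sites lay within 5 kb for 11 members (26.2%), against 44.6% and 19.5%.

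The 42 members had 40 distinct nearest coding genes, of which 32 passed the filter on low counts and were tested in the fit across all genes, in the same libraries that chose the members. Of the 32, 12 (37.5%) were called higher in DNMT1 KO and 1 (3.12%) lower, against 7.78% and 7.33% of all coding genes tested on these chromosomes. Some of the 12 passed the filter through their DNMT1 KO level alone, such as PROX1 with no HCT116 count, IGFBP7 with 7, DLK1 with 10 and CELF2 with 24, and such a gene had to differ. With at least 10 counts required in every library, 6 were called higher, while genes called higher over the whole table went from 1431 to 734. The share of coding genes called under that filter is not given here, so the 6 has no background to be set against. The median log2 fold change of the 32 was 0.80, with 25 of 32 above 0, against -0.06 for all coding genes tested. Nearest coding genes of the 1066 other expressed lncRNA genes gave 6.80% higher and 6.80% lower, with a median of -0.03. Every DNMT1 KO library lay above every HCT116 library for 16 of the 32 (50.0%), against 12.8% of coding genes tested, of which 5.69% had every DNMT1 KO library below. Of the 40, 6 (15%) also met both limits of the members' rule, PROX1, IGFBP7, IL20RA, TNFAIP3, CELF2 and DLK1, against 0.907% of coding genes.

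By position, a split that was not tested, the shares were as follows. Of the tested coding genes that overlapped a member, 8 of 14 (57.1%) were called higher. All 8 were on the opposite strand, but so were 12 of the 14 tested. PROX1 counts here and below, as it has 2 members. Without overlap it was 4 of 13 (30.8%) within 50 kb and 1 of 6 (16.7%) beyond. The same shares around the other expressed lncRNA genes were 6.97% with overlap, 4.75% without it within 50 kb and 20% beyond, so the share beyond 50 kb was not above that background. The counting used no stated strand option and 17 members share exonic bases with another gene, 2.32 to 30.1% of their own. How reads in the shared bases were assigned is not known, so a member and its antisense partner may not be told apart there. With overlapping pairs left out, 5 of 19 (26.3%) were called higher and 1 (5.26%) lower, against 6.67% and 7.73% around the other expressed lncRNA genes.

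**Figure D3:**
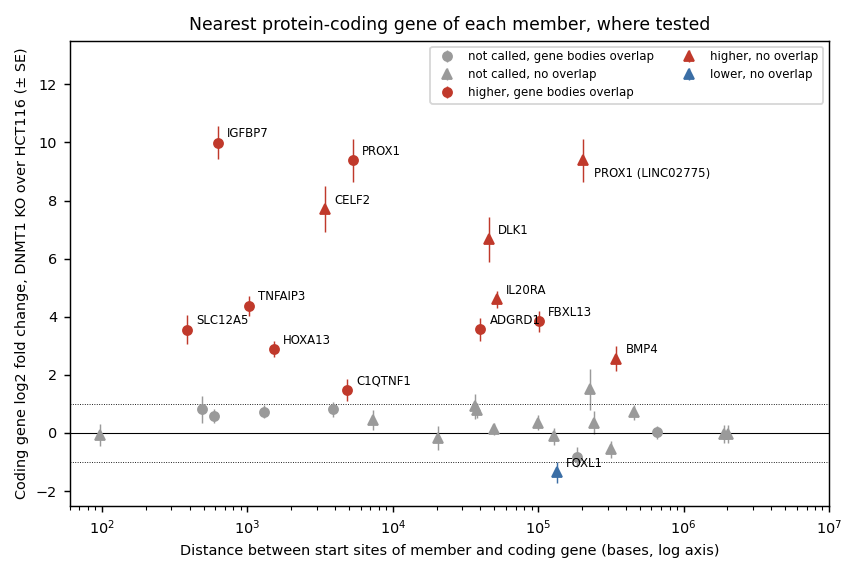
Log2 fold change (DNMT1 KO over HCT116, ± SE) of the nearest coding gene against the distance between its start site and the member's (bases, log axis), for the 32 tested genes. PROX1 and PIK3C3 each appear once for each of their 2 members. Red marks genes called higher, blue lower and grey not called, circles overlapping and triangles separate gene bodies, and the red points span 383 to 344735 bases.

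IGFBP7, which encodes a secreted insulin-like growth factor binding protein, had the largest change. It was at 31.4, 28.5, 20.2 and 21.5 CPM in DNMT1 KO replicates 1 to 4 and at 0 to 0.0565 CPM in HCT116 with a median of 0.00712. By edgeR this was a log2 fold change of 9.99 (SE 0.56). No p-value is given, since IGFBP7 passed the filter through its DNMT1 KO level alone. Its member IGFBP7-AS1 starts 623 bases from the coding start on the opposite strand, in the CpG-rich window printed above, and had no HCT116 count and 1.5 to 1.79 CPM in DNMT1 KO.

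PROX1, a homeobox factor of lymphatic endothelium and liver, had no count in HCT116 and was at 1.55, 1.75, 1.33 and 2.28 CPM in DNMT1 KO. It was at least 206-fold higher. No p-value is given here either, since PROX1 passed the filter through its DNMT1 KO level alone. It is the nearest coding gene of both PROX1-AS1, which overlaps its start with 2.58% of its exonic bases shared, and LINC02775, which converges on it from 9692 bases. All 3 genes were thus at 0 in every HCT116 library and above 0.5 CPM in every DNMT1 KO library.

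SFTA1P and CELF2 start 3417 bases apart and run away from each other. CELF2, an RNA-binding regulator of splicing, was at 21.8, 11.9, 21.7 and 17.5 CPM in DNMT1 KO and at 0 to 0.226 CPM in HCT116 with a median of 0.0618 (log2 fold change 7.71, SE 0.78). DLK1, an imprinted Notch-related ligand, was at 3.58, 3.13, 7.0 and 1.95 CPM against 0 to 0.113 CPM with a median of 0.0263 (log2 fold change 6.67, SE 0.78). CELF2 and DLK1 also passed the filter through their DNMT1 KO level alone, so no p-value is given for them. DLK1 lies 45821 bases from ENSG00000258717, which was itself at 0.855, 1.89, 1.31 and 1.27 CPM against 0.0247 to 0.169 CPM. MEG3, the lncRNA of the same imprinted locus, stayed at or below 0.150 CPM in all libraries and was not tested.

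On chromosome 6, NHEG1 and WAKMAR2 each neighbour a gene of inflammatory signalling. IL20RA, a receptor subunit for interleukin-20 family cytokines, lies 6737 bases from NHEG1 on the same strand and was at 72.7, 73.0, 34.1 and 69.3 CPM in DNMT1 KO against 1.54 to 3.11 CPM in HCT116 with a median of 2.26. By edgeR it rose by 4.59 on the log2 scale (SE 0.31, adjusted p = 1.36e-07). WAKMAR2, a lncRNA of wound-healing keratinocytes, was at 12.2, 12.4, 7.63 and 11.9 CPM against 0 to 0.221 CPM with a median of 0.135. TNFAIP3, which encodes the NF-kB inhibitor A20 and starts 1019 bases away on the opposite strand, was at 154, 171, 106 and 118 CPM against 2.71 to 11.3 CPM with a median of 5.10 (log2 fold change 4.38, SE 0.34, edgeR adjusted p = 5.11e-07). Replicate 3 was the lowest DNMT1 KO library for NHEG1, IL20RA, WAKMAR2 and TNFAIP3 alike.

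HOTTIP, a lncRNA at the 5′ end of the HOXA cluster known for recruiting a histone methyltransferase complex to HOXA genes, was at 10.2, 8.98, 3.86 and 7.27 CPM in DNMT1 KO and at 0.0233 to 0.367 CPM in HCT116 with a median of 0.0989. HOXA13, the homeobox gene it overlaps, was already expressed in HCT116 at 9.16 to 13.6 CPM with a median of 12, and was at 142, 116, 51.4 and 92.6 CPM in DNMT1 KO (log2 fold change 2.88, SE 0.28, edgeR adjusted p = 3.82e-06). HOTTIP shares 20.1% of its exonic bases with HOXA13 and small annotated transcripts. For both genes replicate 1 was the highest DNMT1 KO library and replicate 3 the lowest.

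FBXL13, an F-box protein gene that encloses NFE4 on the opposite strand without shared exonic bases, was at 5.74, 7.01, 13.6 and 5.66 CPM against 0.314 to 0.714 CPM with a median of 0.418 (log2 fold change 3.84, SE 0.36, edgeR adjusted p = 3.41e-06). ADGRD1, an adhesion G protein-coupled receptor gene, was at 4.41, 4.59, 5.85 and 2.47 CPM against 0.198 to 0.541 CPM with a median of 0.287 (log2 fold change 3.57, SE 0.39, edgeR adjusted p = 1.23e-05). Its member ADGRD1-AS1 was at 2.54, 3.12, 2.78 and 2.21 CPM and had 10 counts in HCT116. SLC12A5, the neuronal potassium-chloride cotransporter gene, rose by a log2 fold change of 3.55 (SE 0.50, edgeR adjusted p = 0.00014), from 0.0618 to 0.650 CPM in HCT116 to 3.55, 4.4, 4.38 and 2.21 CPM in DNMT1 KO. SLC12A5-AS1, at 0.556 to 1.12 CPM in DNMT1 KO, shares 27.9% of its exonic bases with SLC12A5 and MMP9. How reads in that stretch were assigned is not known, so these 2 values may not be separate measurements there.

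BMP4, a secreted morphogen, lies 335710 bases from ENSG00000225680 and was the most distant neighbour called higher. It was at 644, 708, 372 and 635 CPM in DNMT1 KO against 26.0 to 144 CPM in HCT116 with a median of 95.1 (log2 fold change 2.55, SE 0.44, edgeR adjusted p = 0.0007). C1QTNF1, a secreted C1q-related protein gene overlapping C1QTNF1-AS1, was at 34.9, 20.6, 29.7 and 24.0 CPM against 3.59 to 15.3 CPM with a median of 8.65 (log2 fold change 1.47, SE 0.38, edgeR adjusted p = 0.0137). Without DNMT1 KO replicate 1 its adjusted p was 0.0577. Both genes also differed within HCT116, between batch 4 and batches 1 and 2, by a log2 fold change of 1.47 for BMP4 (edgeR adjusted p = 0.037) and -1.34 for C1QTNF1 (0.0414), while the increases between the groups were seen within batch 1 and within batch 2 for both.

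The 8 largest increases and the decrease were named by the rule for named genes, while HOXA13, SLC12A5, BMP4, C1QTNF1 and the genes not called below were chosen after their values were seen. A single nearest coding gene was called lower. FOXL1, a forkhead factor of gut mesenchyme 127962 bases from LINC02188, was at 3.05, 1.6, 3.10 and 1.35 CPM in DNMT1 KO against 3.54 to 7.99 CPM in HCT116 with a median of 4.51 (log2 fold change -1.35, SE 0.36, edgeR adjusted p = 0.0187). The call was lost without DNMT1 KO replicate 2 (adjusted p = 0.0721) and without replicate 4 (adjusted p = 0.0643).

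**Figure D4:**
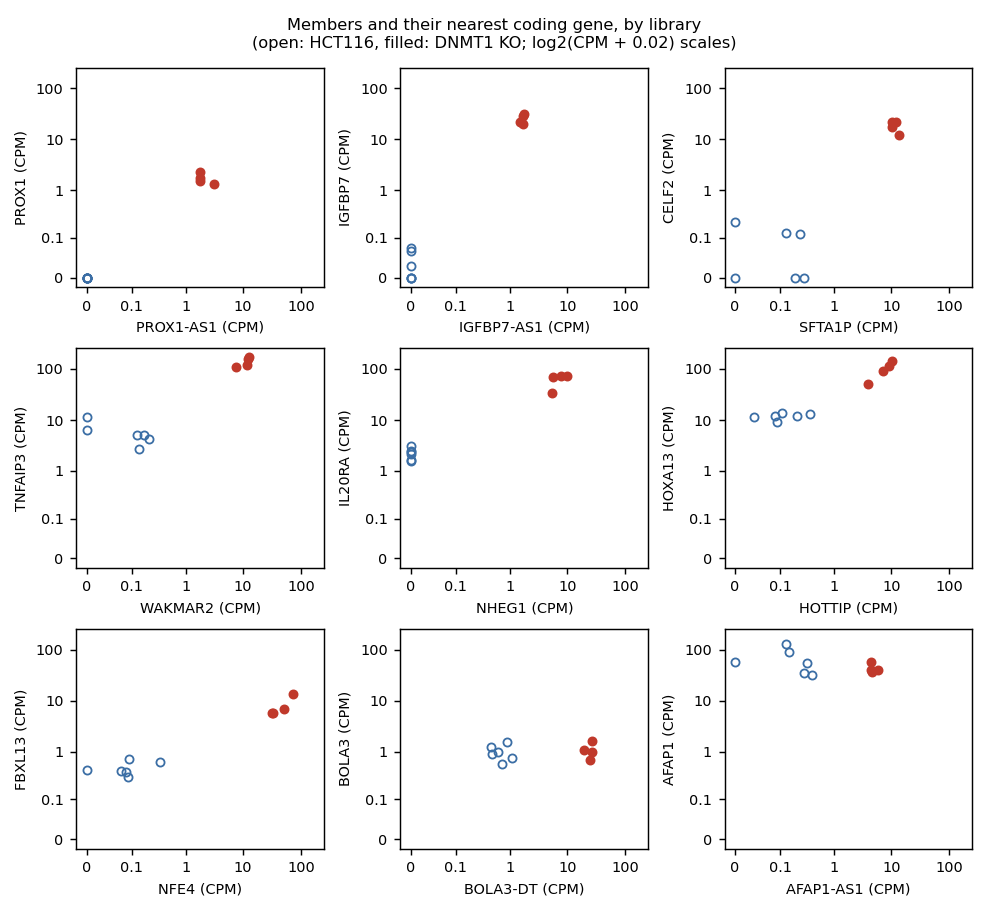
CPM of the nearest coding gene against CPM of the member in each library, for 9 pairs, on log2(CPM + 0.02) scales; open circles are the 6 HCT116 libraries and filled circles the 4 DNMT1 KO libraries. In the panels of PROX1, IGFBP7, CELF2, TNFAIP3, IL20RA, HOXA13 and FBXL13 the filled circles lie above all open ones, while for BOLA3 and AFAP1 the groups overlap on the vertical axis.

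For 20 members the nearest coding gene was tested and not called. BOLA3, a mitochondrial iron-sulphur assembly gene whose start is 97 bases from that of BOLA3-DT, was at 0.668, 1.6, 1.00 and 1.09 CPM in DNMT1 KO against 0.569 to 1.52 CPM in HCT116 with a median of 0.945 (log2 fold change -0.06, SE 0.38, edgeR adjusted p = 0.934). YPEL3, 485 bases from the start of YPEL3-DT, was at 9.43, 8.35, 9.44 and 4.57 CPM against 1.01 to 8.31 CPM with a median of 3.67 (log2 fold change 0.81, SE 0.48, edgeR adjusted p = 0.302). At both of these bidirectional starts the lncRNA was above 10 CPM in every DNMT1 KO library and at or below 1.10 CPM in every HCT116 library, while the groups of the coding gene overlapped.

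AFAP1, an actin filament-associated protein gene that overlaps AFAP1-AS1, was at 35.9 to 56.8 CPM in DNMT1 KO and at 31.8 to 130 CPM in HCT116 (log2 fold change -0.83, SE 0.36, edgeR adjusted p = 0.144). SLC19A1, the folate carrier gene nearest to LINC01694, was at 26.6 to 85.6 CPM against 31.5 to 99.6 CPM (log2 fold change -0.18, SE 0.40, edgeR adjusted p = 0.819). RNF144A, overlapped by GRASLND, and LPIN1, which holds ENSG00000228496, had adjusted p of 0.0265 and 0.0407 by edgeR but log2 fold changes of 0.74 (SE 0.21) and 0.82 (SE 0.26), below the limit of 1. For 8 members the nearest coding gene was not tested. It had a mean under 0.5 CPM in both groups for 7 of them, such as RFPL1 with no count in any library beside RFPL1S at 1.18 to 3.37 CPM in DNMT1 KO, and KRT9, an epidermal keratin gene beside LINC00974, was at 0.0897 to 0.993 CPM in DNMT1 KO and 0.0433 to 0.142 CPM in HCT116.

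Beyond the nearest gene, 72 other coding genes within 100 kb of a member were tested. Of these, 12 (16.7%) were called higher and 2 (2.78%) lower. HOXA4 was the only gene of the HOXA cluster among the 12, which also held EVX1 beside that cluster, both near HOTTIP. The keratin genes KRT17, KRT35 and KRT36 near LINC00974 were among the 12 too. Those called lower were MRRF and a further keratin gene, KRT15. Whether any of the 12 passed the filter through their DNMT1 KO level alone was not examined. The median log2 fold change of the 72 was 0.12. Between 100 and 500 kb, 19 of 219 (8.68%) were called higher and 10 (4.57%) lower, with a median of 0.01, against 7.78% and 7.33% of all coding genes. The names within 100 kb fall outside the rule for named genes and were chosen after their values were seen.

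Within HCT116 alone, a comparison of batch 4 with batches 1 and 2 called 1498 genes, including 8.31% of coding genes tested. The number was 234 without HCT116 replicate 9 and 3570 without replicate 1, so it rests on single libraries. Of the members' nearest coding genes, 6 of 28 tested (21.4%) were called in that comparison, BMP4, C1QTNF1, COL6A1, TSPEAR, YPEL3 and ZNF516, of which BMP4 and C1QTNF1 were also called between the groups. With only the batch 1 and 2 libraries and a batch term, edgeR called all 42 members higher, a contrast that shares the libraries of the rule.

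A reference list of well-known lncRNA genes had too few calls to compare with the shares of all lncRNA genes, and nothing is read from its counts. Of its 21 genes, which includes HOTTIP itself, 18 were tested, 1 was called higher and 2 lower, against 11.5% and 5.37% of lncRNA genes tested, with a median log2 fold change of -0.24. The 1 was HOTTIP, a member by the rule. TUG1 had a log2 fold change of 0.85 (SE 0.22, edgeR adjusted p = 0.014), under the limit of 1, and KCNQ1OT1 and CRNDE had 1.20 (SE 0.48) and 1.23 (SE 0.50) and were not called (edgeR adjusted p = 0.11 and 0.12). HOTAIR, the HOXC lncRNA, was at 0.169 to 0.763 CPM in HCT116 and 0 to 0.0718 CPM in DNMT1 KO (log2 fold change -3.52, SE 0.78). No p-value is given for HOTAIR, since it passed the filter through its HCT116 level alone and had to differ. UCA1, a lncRNA named for urothelial carcinoma, was at 42.4 to 158 CPM in HCT116 and 0.908 to 1.54 CPM in DNMT1 KO (log2 fold change -6.48, SE 0.47, edgeR adjusted p = 2.85e-07). H19 had no count in any library, and MALAT1 was at 91.6 ± 69.6 CPM (SD, n = 6) and 100.4 ± 91.9 CPM (SD, n = 4).

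Among 9 genes of the DNA methylation machinery, 8 were tested, with TET1, a 5-methylcytosine dioxygenase, called higher and DNMT1 lower, against 7.42% and 6.49% of all genes tested, so nothing is read from these counts. TET1 was at 2.60 to 6.86 CPM in HCT116 and 16.6 to 24.3 CPM in DNMT1 KO (log2 fold change 1.77, SE 0.28, edgeR adjusted p = 0.000366). The de novo methyltransferases DNMT3A and DNMT3B had log2 fold changes of 0.71 (SE 0.25) and -0.81 (SE 0.30) and were not called. Fold changes here are on TMM-scaled totals, and on library totals alone, the scale of the CPM values, they were 0.21 higher in the median.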

How the data were processed

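Polyadenylated RNA from 6 HCT116 and 4 DNMT1 KO cultures was sequenced as stranded libraries. The authors trimmed reads with Trim Galore 0.4.1, checked them with FastQC 0.11.4, aligned pairs to hg38 with Bowtie2, kept mapping quality of at least 10 and deposited featureCounts counts per gene, with no strand option named. An aligner that does not split reads loses pairs across exon junctions. Count columns of 3 further HCT116 replicates match no sample of the series list and were not used. Members and lists were chosen with earlier results of these data known.

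CPM divides counts by the library total. Genes were tested with edgeR 4.0.16 (filterByExpr, TMM, quasi-likelihood, R 4.3.3) over all 10 libraries, and a gene was called where its Benjamini-Hochberg adjusted p was under 0.05 and its change beyond 1 on the log2 scale. The fit was tested on simulated data. Neighbours, gene types and promoters came from the tables' coordinates, GENCODE 44 and hg38. Folds over groups with no count use a floor of 3 counts over the group. Intervals are exact at 95% for counting error only. Named genes were the 12 members highest per kb, the 6 with the largest ratio, the 4 widest and 4 narrowest, those nearest the limits, those within 500 kb of each other, those on the reference list, and the 8 largest increases and 5 largest decreases among called neighbours. Alternatives were DESeq2 1.42.0, other scalings, filters and limits, batch terms, a replicate block and leaving out each library. Replicates are separate cultures of 1 line each, so p-values measure the spread between cultures. Deviations of same-numbered libraries correlated at 0.46, -0.20 and 0.37, so the numbers were not taken to pair them. Some sequences and 1 marker gene are not reported here.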

Additional observations from a re-analysis of the deposited data

Results flagged for a closer look

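Dixon's criterion set a single library apart in 9 of the 68 groups of values examined, where chance gives about 1 in 20, or 3.4. Of these, 5 were member genes in DNMT1 KO. WAKMAR2 was at 7.63 CPM in replicate 3 against 11.9 to 12.4 CPM in the others, LINC02188 at 3.62 CPM in replicate 3 against 0.818 to 1.12 CPM, and PROX1-AS1 at 3.16 CPM in replicate 3 against 1.76 to 1.79 CPM. LINC00189 was at 3.37 CPM in replicate 4 against 1.17 to 1.35 CPM, and AFAP1-AS1 at 5.76 CPM in replicate 2 against 4.46 to 4.61 CPM.

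Nearest coding genes gave 2 more. In DNMT1 KO replicate 3, IL20RA was at 34.1 CPM where the others ranged from 69.3 to 73.0 CPM, and FBXL13 at 13.6 CPM in the same library against 5.66 to 7.01 CPM. The share of counts in lncRNA genes was 0.548% in HCT116 replicate 7 against 0.816 to 0.972% in the other HCT116 libraries, while DNMT1 KO replicate 3 had 1.12% and the rest of its group 0.881 to 0.898%. DNMT1 KO replicate 3 thus accounted for 6 of the 9, with values above the others in 4 and below them in 2.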

How the results depend on the processing

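The number of members depended on the limits and on the scaling, and was 36 with TMM-scaled totals. It was 27 with a 2% limit, 65 with a 0.25 CPM minimum, 27 with a 1 CPM minimum and 40 to 47 when 1 library was left out. Nearest coding genes called higher, 12 as reported, were 6 when at least 10 counts were required in every library, 5 with overlapping pairs left out, and 11 to 13 without 1 library. With the replicate number as a block, 11 were called higher (C1QTNF1 lost its call) and 2 lower, although the numbers were not found to pair the libraries, and genes called over the whole table went from 1431 to 1232 higher and from 1251 to 1235 lower. The second gene called lower, AFAP1, was also called with batch as a term over all libraries, again giving 2. Leaving out 1 library gave 0 to 1 called lower, the 0 arising without DNMT1 KO replicate 2 or replicate 4. FOXL1 also lost its call in a fit of the batch 1 and 2 libraries that included batch (log2 fold change -1.33, edgeR adjusted p = 0.0625).

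With at least 10 counts in every library, which leaves out genes silent in HCT116, 734 genes were called higher and 766 lower in place of 1431 and 1251. Without 1 library these were 1214 to 1587 and 987 to 1250. For the reference list, 2 were called higher on library totals alone, 0 with at least 10 counts (where HOTTIP was not tested) and 1 to 2 without 1 library. Those called lower were 1 with at least 10 counts, 4 with batch as a term and 2 to 4 without 1 library. For the DNA methylation machinery, 2 were called higher with no filter. The HCT116 batch comparison gave 234 to 3570 genes without 1 library. The gain in detected lncRNA genes was 278 in batches 1 and 2 alone (exact permutation p = 0.1, the smallest that 3 against 3 allows) and 234 to 329 without 1 library. No called result changed its direction under the alternatives run, while among nearest coding genes that were not called BOLA3 ran from -0.31 to 0.12 and SLC19A1 from -0.40 to 0.12 on the log2 scale without 1 library, and CAMTA1, MEX3C and PIK3C3 also crossed 0. The cause of these shifts was not tested. The depth of DNMT1 KO replicate 4, 26700853 counts, sets the lowest precision among the libraries.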
